A study of Mus musculus with 21 samples.

Results

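The antigen-presenting class I molecules of the major histocompatibility complex (MHC) and the genes switched on by interferon were followed through 3 lincRNA knockout mouse strains by 9 genes: B2m, H2-D1, H2-K1, Ifitm2, Ifitm3, Bst2, Isg15, Irf7 and Ifit1. They were taken by gene symbol, and each had 1 row in each of the 3 expression tables, which together list 46290 gene rows. The series held 21 RNA-Seq libraries in 10 groups, with a wild type (WT) and a knockout (KO) group at each of 5 tissue and age points. Whole brain at E18.5 came from the Peril strain (linc-Sox2+/+ or linc-Sox2-/- in the labels), lung at E14.5 from the Fendrr strain (linc-Foxf1a+/+ or linc-Foxf1a-/-), and telencephalon at E13.5, telencephalon at E15.5 and brain at postnatal day 7 (P7) from the linc-Brn1b strain (linc-Brn1b+/+ or linc-Brn1b-/-). In each knockout the lincRNA gene was replaced by a lacZ cassette in hybrid embryonic stem cells, and the mice were then backcrossed 1 time to C57BL/6J. The wild type groups carry neither cassette nor deletion. Each group held 2 libraries, except the E15.5 linc-Brn1b knockout with 3, and how many of these 3 entered its pooled level is unknown.

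Every cell with a nucleus can show fragments of its own proteins on class I molecules, each made of a heavy chain (H2-D1 and H2-K1 are the classical ones here) and the light chain beta-2-microglobulin, encoded by B2m. Type I interferons bind a receptor that acts through JAK kinases and transcription factors, which switch on antiviral genes through a short DNA element made of paired GAAA blocks. In the healthy developing brain class I levels are low, and microglia, the resident macrophages, and vessel cells are among the cells known to carry them. In whole tissue a lower level can come from fewer cells of a type or from less RNA per cell, which cannot be told apart here.

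The tables give 1 pooled level per group, as FPKM (fragments scaled to transcript length and to the fragments mapped), and no value per library. A spread between replicates could therefore not be computed, no test was run, and every comparison below is a description of pooled levels with no replicate check. The difference between 2 groups is given as the difference of log2(FPKM + 1), which understates the change of low genes, and a gene was counted as higher or lower when it differed by at least 1.5-fold on that scale. Only genes with a mean of at least 1 FPKM over the groups compared were counted, and the share of all such genes past the same fold stands beside each count of the 9 genes and applies to every gene list of that comparison.

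The deleted lincRNA was nearly absent from the Fendrr and linc-Brn1b knockouts. The Fendrr transcript, listed as linc-Cox4nb-4, stood at 38.4 FPKM in the control lungs and at 0.0450 FPKM in those without it. For linc-Brn1b the wild type levels were 1.60, 2.50 and 0.799 FPKM at E13.5, E15.5 and P7, and the knockouts were listed at 0. The Peril and Fendrr values carry only the header KO_WT, and which value is wild type was read from the order found for linc-Brn1b. In the Peril brains the transcript over the targeted locus (linc-Atp11b-4) went against this reading. It stood at 0.0109 FPKM in the group read as wild type and at 4.65 FPKM in that read as knockout. The direction of every Peril difference rests on this reading and on the sample labels, and an error in either cannot be told apart. Below, Peril libraries labelled wild type or knockout are those so read. The 4 Y-linked genes examined differed with genotype at all 5 points. Their summed level was near 0 in WT and 26.4, 21.0 and 23.2 FPKM in KO for Peril, E15.5 and P7, and 33.6 and 49.2 FPKM in WT against near 0 in KO for Fendrr and E13.5, so sex and genotype cannot be told apart in any of these comparisons. Tissue labels matched their markers: 9 neuronal genes summed to between 1659 and 3819 FPKM in the brain groups and to 32.0 and 35.0 FPKM in the lung groups, where 8 lung epithelial and mesenchymal genes summed to 1047 and 1083 FPKM.

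The 9 genes lie at 9 places on 6 chromosomes of mm9, and 3 of them sit close together on chromosome 7. By the GENCODE annotation, B2m spans chr2:121973422-121978819 on the plus strand, and the heavy chain genes span chr17:34132962-34137278 on the minus strand for H2-K1 and chr17:35399675-35404444 on the plus strand for H2-D1. Ifitm2 spans chr7:148140736-148141882, Ifitm3 chr7:148195485-148196669 and Irf7 chr7:148448605-148452380, all on the minus strand. Isg15 spans chr4:155573533-155574927 and Bst2 chr8:74058163-74061336, both on the minus strand, and Ifit1 spans chr19:34715361-34724499 on the plus strand. Cufflinks assigned H2-D1 to a merged locus of 232818 bp, together with H2-Q and other class I genes. H2-D1 shares that locus with 20 other gene rows in the linc-Brn1b table and 18 in each of the others. Isg15 lay in a merged locus of 47648 bp with 4 other rows, Agrn among them, in the Peril and Fendrr tables. In the linc-Brn1b table Isg15 had a locus of its own. B2m and Ifit1 each shared a locus with 3 other rows in every table. Of the windows of 1 read length in the longest annotated transcript, 4.60% for H2-D1 and 3.21% for Ifit1 also occur in transcripts of other genes, and none do for the remaining 7 genes. Only exact matches to annotated protein-coding transcripts were counted, so these shares do not bound the uncertainty of any of the 9 levels. In the Fendrr and Peril tables a linc-H2-K1-AS row lies antisense to H2-K1, from which unstranded reads cannot be told apart.

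Most of these genes hold an exact match of the paired GAAA blocks in their promoter window, which is why the stretches are shown. RefSeq promoter windows of 300 bases around the annotated start (GRCm38.p6) were found for all 9 genes, and each matched mm9 exactly at 1 place. A pair of GAAA blocks 2 bases apart (GAAANNGAAA, either strand, overlaps counted) occurred in 6 of the 9 genes, against 3.99% of 27025 genes with a window. The kappa B palindrome GGGATTCCC occurred in H2-K1 and H2-D1, against 0.414% of all genes. Irf7 held neither motif. The stretches below read in the direction of transcription, with the matched motif in capitals, and mm9 positions are given. Isg15 held 3 matches of the paired blocks, Bst2, Ifitm3 and Ifit1 held 2 each, and B2m and Ifitm2 held 1 each.
Isg15 (chr4:155574964-155575025, minus strand): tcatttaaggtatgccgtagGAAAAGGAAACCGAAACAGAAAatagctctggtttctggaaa
Bst2 (chr8:74061466-74061521, minus strand): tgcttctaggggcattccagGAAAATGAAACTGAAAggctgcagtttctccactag
Ifitm3 (chr7:148196615-148196641, minus strand): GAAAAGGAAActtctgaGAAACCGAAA
Ifitm2 (chr7:148141877-148141926, minus strand): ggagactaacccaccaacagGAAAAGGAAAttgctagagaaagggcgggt
B2m (chr2:121973264-121973313, plus strand): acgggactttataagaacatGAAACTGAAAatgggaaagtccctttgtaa
Ifit1 (chr19:34715255-34715323, plus strand): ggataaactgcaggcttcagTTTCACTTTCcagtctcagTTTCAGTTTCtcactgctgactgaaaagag
H2-K1 (chr17:34137374-34137422, minus strand): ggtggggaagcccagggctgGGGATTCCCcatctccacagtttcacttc

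The Isg15 run holds 3 overlapping matches from base -78 to base -57 before the start, and the Bst2 run holds 2 from -130 to -115. In Ifitm3 the matches lie just after the start, at bases 3 to 12 and 20 to 29, whereas the single match of Ifitm2 lies at -46 to -37. The same stretch of H2-D1 shares 48 of 49 bases with that of H2-K1. Among genes listed as other interferon-stimulated genes, 29 of the 64 with a window held the paired GAAA blocks. A match describes the letters only. A variant of the element with other letters or spacing is missed by this search. H2-K1, H2-D1 and Irf7 are therefore not shown to lack an interferon-type element.

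**Figure D1:**
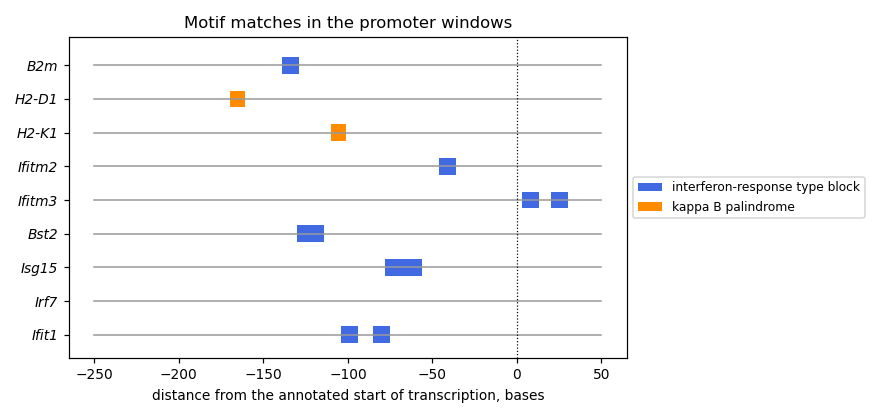
Positions of motif matches in the 300-base promoter windows of the 9 genes, in bases from the annotated start; blue marks the paired blocks and orange the kappa B palindrome. Isg15 and Bst2 hold runs of overlapping matches, the Ifitm3 matches lie after the start, and Irf7 has none.

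B2m was among the most abundant of the 9 genes in every group. In WT and KO it stood at 57.9 and 38.5 FPKM in Peril brain, 151 and 165 FPKM in Fendrr lung, 21.3 and 15.7 FPKM at E13.5, 16.3 and 15.8 FPKM at E15.5, and 56.8 and 51.7 FPKM at P7. Lung was thus highest, the older brains intermediate and the embryonic telencephalon lowest.

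H2-D1, the more abundant classical heavy chain here, ran in the same order of groups at 22.8 and 19.1, 23.2 and 20.2, 8.53 and 6.85, 9.71 and 9.28, and 25.8 and 25.1 FPKM. Unlike B2m it was no higher in lung than in P7 brain. H2-K1, the other classical heavy chain, stood at 5.68 and 3.64, 9.51 and 11.1, 4.51 and 3.03, 2.46 and 2.08, and 6.26 and 6.17 FPKM. H2-D1 exceeded H2-K1 in all 10 groups, by between 1.82-fold in the Fendrr knockout lung and 5.26-fold in the Peril brains labelled knockout. B2m exceeded the sum of both heavy chains in all 10 groups, by 1.34-fold to 5.26-fold, with both lung groups above 4.6-fold.

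The restriction factors, proteins that hinder viruses at membranes, were higher in lung than in every brain group. Lung and brain groups also differ in strain and age and were normalised separately. Tissue cannot be told apart from these, which holds for B2m and the heavy chains too. Ifitm2, an interferon-induced transmembrane protein, stood at 196 and 212 FPKM in WT and KO lung, and lay between 17.3 and 32.8 FPKM in the 8 brain groups. Ifitm3, its neighbour on chromosome 7, which blocks virus fusion, stood at 62.7 and 66.6 FPKM in lung, at 23.3 and 13.03 FPKM in Peril brain, at 3.69 and 1.42 FPKM at E13.5, at 3.35 and 3.31 FPKM at E15.5, and at 13.1 and 11.6 FPKM at P7. The Ifitm2 to Ifitm3 ratio therefore ranged from 1.29 in the Peril brains labelled wild type to 12.2 in E13.5 knockout telencephalon, so the pair did not keep 1 ratio across groups. Bst2 (tetherin), which holds budding virus at the cell surface, stood at 21.4 and 22.4 FPKM in lung, at 11.7 and 5.83 FPKM in Peril brain, at 3.32 and 1.18 FPKM at E13.5, at 1.29 and 1.31 FPKM at E15.5, and at 4.39 and 4.13 FPKM at P7.

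Isg15, Irf7 and Ifit1 were the least abundant of the 9 genes in every group but the Peril brains labelled wild type, where Isg15 stood above H2-K1. Isg15, a ubiquitin-like modifier, reached 7.92 FPKM in the Peril brains labelled wild type against 2.62 FPKM in those labelled knockout, and in the other 8 groups lay between 0.474 FPKM in wild type lung and 1.48 FPKM in P7 knockout brain. Irf7, the transcription factor that amplifies interferon production, stood at 1.85 and 1.06 FPKM in the Peril brains and at 0.148 to 0.602 FPKM elsewhere. Ifit1, which binds foreign RNA ends, stood at 1.28 and 0.473 FPKM in the Peril brains and at 0.445 FPKM or below elsewhere, and was listed at 0 in E13.5 knockout telencephalon. For all 3 genes the Peril brains labelled wild type held the highest level of the 10 groups, although that table was normalised separately from the others. Its Isg15 locus was also merged with other genes, unlike that of the linc-Brn1b groups.

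**Figure D2:**
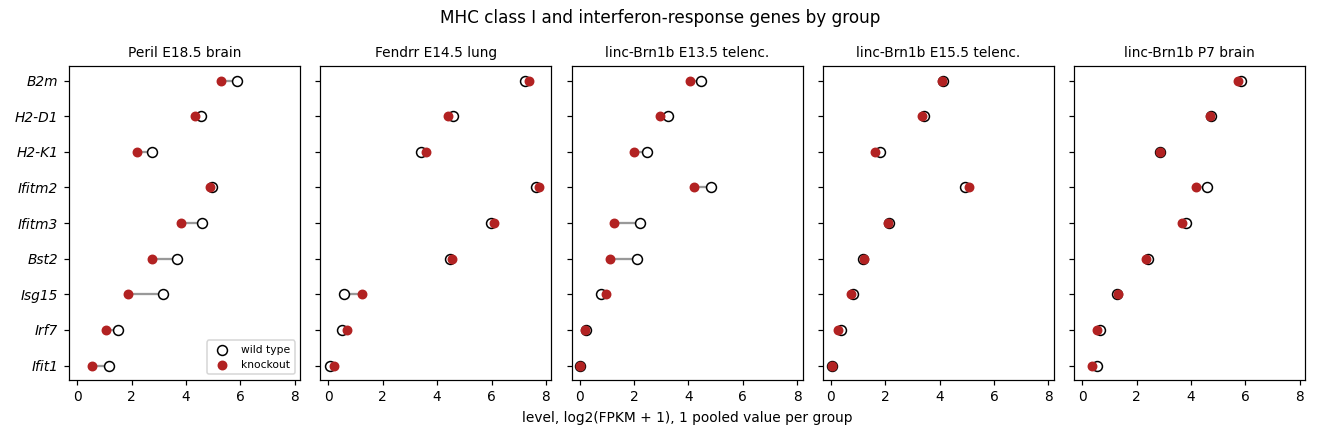
Level of each gene as log2(FPKM + 1), with 1 panel per tissue and age, open circles for wild type and red for knockout groups, each 1 pooled value. Red points lie left of open ones for every gene in Peril brain, where knockout means the libraries labelled so, and B2m and Ifitm2 are highest in lung.

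In the E18.5 brain all 9 genes were lower in the Peril libraries labelled knockout than in those labelled wild type. Among the 8 with a mean of at least 1 FPKM, 3 were lower by 1.5-fold or more and none was higher, where 0.666% of all 14405 such genes were lower and 0.958% higher past that fold. The median difference of the 8 was -0.55, against a median of 0.0031 over all genes. The genes past the fold were antiviral ones, with Isg15 at -1.30, Bst2 at -0.90 and Ifitm3 at -0.79 on the log2(FPKM + 1) scale, which placed them 21st, 40th and 55th from the lowest of all 14405 differences. With the labels exchanged the same ranks would count from the highest. B2m lay just inside the fold at 1.49-fold lower, and H2-K1 (-0.53) and Irf7 (-0.46) were nearer to it than H2-D1 (-0.24). Ifitm2 differed by -0.06 only, although its neighbour Ifitm3 was 1.73-fold lower. Ifit1 was not counted, having a mean under 1 FPKM. The count depends on how low values are handled, since with a plain ratio 6 of the 8 genes were lower by 1.5-fold or more (B2m, H2-K1, Ifitm3, Isg15, Irf7 and Bst2) and 1.56% of all genes were.

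Other genes of the pathway leaned the same way in the Peril brains, without many reaching the fold. Of 33 other interferon-stimulated genes counted, 3 were lower by 1.5-fold or more, none was higher, and 28 had a difference below 0, with a median of -0.30, where 49.2% of all genes had a difference below 0. Those past the fold were Xaf1, a pro-apoptotic factor, at 2.36 and 0.944 FPKM, Rtp4 at 2.83 and 1.40 FPKM, and Irgm1, an immunity-related GTPase, at 3.03 and 1.66 FPKM. The galectin Lgals9 fell short at 8.87 and 5.63 FPKM. Among 16 receptors and signalling genes none passed the fold, with Usp18, an inhibitor of interferon signalling, at 1.47 and 0.745 FPKM and Irf9, a transcription factor of the response, at 8.34 and 6.28 FPKM, while the receptor subunit Ifnar1 stood at 20.8 and 21.4 FPKM. All 11 peptide-loading genes counted, B2m included, had a difference below 0 and none passed the fold. Calr, the chaperone calreticulin, stood at 269 and 196 FPKM and Pdia3 at 125 and 96.5 FPKM. The median of 7 nucleic acid sensors was -0.16, with Myd88 at 2.81 and 2.11 FPKM. Interferon ligands themselves were at or near 0: 17 of 19 were listed at 0 in both groups and all 19 summed to 0.0252 and 0 FPKM.

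Markers of other cell types moved in the same direction in the Peril brains. Of 18 microglia and macrophage markers counted, 1 was lower by 1.5-fold or more (Lyz2, lysozyme, at 5.74 and 2.69 FPKM), 16 had a difference below 0, and the 21 of the list summed to 142 and 115 FPKM. Endothelial markers had a median of -0.18, choroid plexus markers -0.34, mesenchymal and meningeal markers -0.31 and erythroid markers -0.59, with Hbb-b1 at 89.2 and 52.8 FPKM. Neuronal markers had a median of 0.02. The part of these cells in the interferon-gene differences was not tested.

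In the E13.5 telencephalon 3 of the 6 genes counted were lower by 1.5-fold or more in the linc-Brn1b knockout and none was higher, and the median of the 6 was -0.55. Of the 5 knockout comparisons this one also had the largest share of genes lower past the fold, at 5.52% of 13507 genes against 1.55% higher. Yet the median over all genes was 0.057, and only 41.1% of them had a difference below 0. The genes past the fold were Bst2 at -0.98, Ifitm3 at -0.95 and Ifitm2 at -0.65, while H2-K1 (-0.45), B2m (-0.42) and H2-D1 (-0.28) were not. Bst2 and Ifitm3 ranked 225th and 243rd from the lowest of all 13507 differences. Isg15, Irf7 and Ifit1 had means under 1 FPKM, and Isg15 was slightly higher in the knockout at 0.932 against 0.728 FPKM.

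The rest of the interferon pathway did not lean the same way at E13.5. Of 18 other interferon-stimulated genes counted, 1 was lower by 1.5-fold or more (Psmb10, an immunoproteasome subunit, at 3.50 and 1.97 FPKM) and 1 was higher (Stat2 at 5.00 and 9.44 FPKM), with a median of 0.11. Among the 8 heavy chain genes counted, Fcgrt, the neonatal antibody receptor that pairs with B2m, was lower at 2.84 and 1.21 FPKM, and the proteasome activator Psme2 stood at 48.1 and 31.9 FPKM. Markers of several other cell types were lower in the same comparison, but not those of the choroid plexus. Of 7 choroid plexus markers counted, 6 had a difference above 0, with a median of 0.20 (177 and 224 FPKM in sum). Neuronal markers had a median of 0.30. For microglia and macrophages 7 of 16 markers were lower by 1.5-fold or more, with Tyrobp at 3.995 and 1.146 FPKM and C1qa at 4.28 and 1.81 FPKM, and the list summed to 62.1 and 42.1 FPKM. For mesenchyme and meninges 8 of 10 were lower (166 and 92.9 FPKM in sum), for erythroid cells 3 of 6 (1307 and 612 FPKM) and for endothelium 1 of 11 (89.9 and 62.0 FPKM). Their part in the differences of Bst2, Ifitm3 and Ifitm2 was not tested.

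None of the genes counted passed the fold in the remaining knockout comparisons. In Fendrr lung 5 of the 6 genes counted were slightly higher in the knockout and H2-D1 was lower, with a median of 0.10 and a range of -0.19 to 0.20, where 0.808% of 13979 genes were lower and 1.41% higher past the fold. Isg15 differed by 0.66 there, past the fold, but its mean was under 1 FPKM (0.474 and 1.33 FPKM) and it was not counted. Of 43 other interferon-stimulated genes Rtp4 was higher (0.683 and 1.77 FPKM) and Isg20, an RNA exonuclease, lower (3.66 and 2.10 FPKM). Lung macrophage markers summed to 216 and 218 FPKM, with none of 21 past the fold. Erythroid markers were lower past the fold in 3 of 7 genes counted (3603 and 2361 FPKM in sum), and none was higher. Of 13 endothelial markers counted, 11 had a difference below 0 and none passed the fold, with a median of -0.26. Mesenchymal and meningeal markers had a median of 0.27, with 1 of 8 higher past the fold and none lower. The part of these cells in the lung values was not tested.

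At E15.5 the 6 genes counted differed by between -0.17 (H2-K1) and 0.16 (Ifitm2), with a median of -0.03. Few genes of any kind differed in this telencephalon comparison, at 0.274% of 13521 genes lower and 0.2% higher. Bst2 and Ifitm3, both past the fold at E13.5, differed by 0.0098 and -0.01. Microglia and macrophage markers summed to 60.6 and 64.7 FPKM, and none of 16 passed the fold. The choroid plexus marker Ttr stood at 231 FPKM with linc-Brn1b present and 1.39 FPKM without it, and 6 of 7 choroid plexus markers counted were lower. Their part in the values of the 9 genes was not tested. At P7 the 7 genes counted differed by between -0.38 (Ifitm2) and 0.02 (Isg15), with a median of -0.07, where 2.24% of 14175 genes were lower and 2.08% higher. Of 19 microglia and macrophage markers counted at P7, 12 had a difference above 0 and 7 below, and the 2 past the fold were higher in the knockout (Tmem119 at 2.26 and 4.35 FPKM and P2ry12 at 7.49 and 12.2 FPKM). All 10 mesenchymal and meningeal markers counted had a difference below 0, and 3 of them were lower past the fold (235 and 185 FPKM in sum). Choroid plexus markers had a median of -0.35, endothelial markers -0.07 and erythroid markers 0.41. Bst2 stood at -0.07 and B2m at -0.13 in the same comparison. The part of these cells in the P7 values of the 9 genes was not tested.

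**Figure D3:**
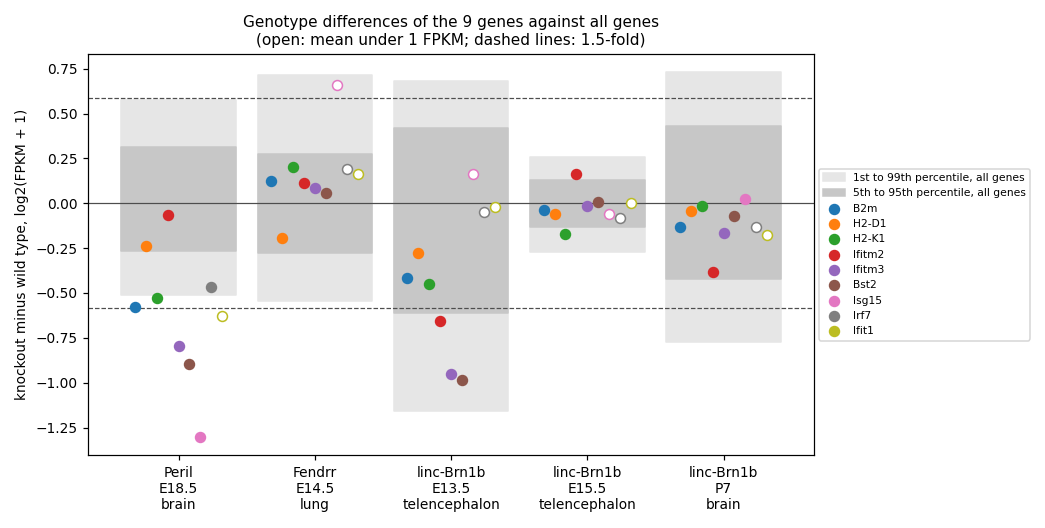
Difference of log2(FPKM + 1), knockout minus wild type, for each gene at the 5 tissue and age points, over grey bands for all genes with a mean of at least 1 FPKM; open points mark genes below that mean and dashed lines the 1.5-fold limits. Isg15, Bst2 and Ifitm3 lie well below the band of the 1st to 99th percentile in Peril brain and B2m and H2-K1 just below it, whereas the E13.5 points lie within a wider band.

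**Figure D4:**
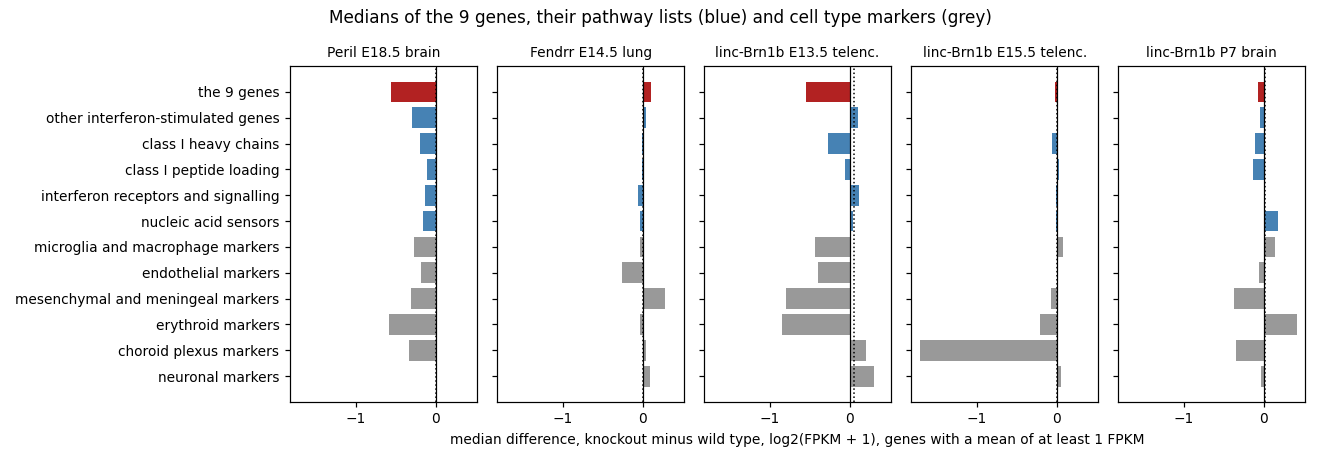
Median difference of log2(FPKM + 1), knockout minus wild type, over the genes counted of each list, for the 9 genes (red), pathway lists (blue; the heavy chain list includes H2-D1 and H2-K1 and the loading list B2m) and cell type markers (grey); dotted lines mark the median of all genes. In Peril brain the interferon-stimulated list lies at -0.30 beside -0.55 for the 9 genes. At E13.5 that list lies at 0.11, microglial and mesenchymal markers at -0.44 and -0.80, and choroid plexus markers at 0.20.

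B2m, H2-D1, H2-K1, Ifitm3 and Bst2 were higher at P7 than at E15.5 in both genotypes of the linc-Brn1b strain. The earlier tissue was telencephalon and the later one brain, so age and dissection cannot be told apart. B2m was higher by 1.74 in wild type and 1.65 in knockout on the log2(FPKM + 1) scale, H2-D1 by 1.32 and 1.34, H2-K1 by 1.07 and 1.22, Ifitm3 by 1.70 and 1.55, and Bst2 by 1.24 and 1.15. These were 5 of 7 genes counted in each genotype, where 23.5% of 14152 genes in wild type and 24.5% of 14109 genes in knockout were higher past the fold. Ifitm2 went the other way, at -0.34 in wild type and -0.89 in knockout, the latter past the fold, where 27.2% and 27.4% of genes were lower. Isg15 was higher by 0.48 and 0.56, short of the fold. The median of the 7 was 1.24 and 1.22, against -0.10 for all genes in both genotypes.

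Only some partner genes of class I passed the fold. Of 11 peptide-loading genes counted in wild type 6 were higher at P7, B2m among them, and none lower. The immunoproteasome subunit Psmb10 stood at 4.22 and 15.8 FPKM and the trimming peptidase Erap1 at 0.962 and 3.20 FPKM. The transporter Tap1 stood at 0.606 and 2.28 FPKM. In knockout 4 of 10 were higher, B2m again among them, and 1 lower (Psme2 at 49.80 and 31.01 FPKM). Of 11 heavy chain genes counted, H2-D1 and H2-K1 included, 6 were higher in wild type and 7 in knockout, and 1 was lower in each. The lower one, Cd1d1, which presents lipids, went from 12.7 to 2.03 FPKM in wild type and from 12.01 to 1.47 FPKM in knockout. Of other interferon-stimulated genes 12 of 22 were higher and 1 lower in wild type, and 8 of 20 higher and 2 lower in knockout. Ifi27l1 went from 0.819 to 7.21 FPKM in wild type. That list also holds Psmb10 and Tap1, so the lists overlap. Of the signalling genes 4 of 15 were higher and 4 lower in wild type, and 2 of 15 higher and 4 lower in knockout, beside the all-gene shares above. In wild type Jak1 went from 19.9 to 42.3 FPKM and Irf3 from 11.01 to 5.185 FPKM. Microglia and macrophage markers were higher in 19 of 19 genes counted in wild type and 18 of 19 in knockout, and their sum went from 60.6 to 186 FPKM and from 64.7 to 201 FPKM. Mesenchymal and meningeal markers were higher in 9 of 10 in each. Endothelial markers were higher in 6 of 14 in each, and neuronal markers higher in 6 and lower in 2 of 9. Erythroid markers were lower in 3 of 4 in wild type, and in knockout 2 of 4 were lower and 1 higher. Of choroid plexus markers 1 of 7 was higher and 1 lower in wild type, and 5 of 6 were higher in knockout. The part of these cells in the class I differences was not tested.

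From E13.5 to E15.5 fewer of the genes counted passed the fold, and different genes did so in each genotype, which was not tested. The Y-linked sum went from 49.2 to 0.0066 FPKM in wild type and from 0.0133 to 21.0 FPKM in knockout over this step, so sex and stage cannot be told apart in either genotype. In wild type Bst2 was lower by -0.92 and H2-K1 by -0.67, 2 of 6 genes counted, where 8.06% of 13539 genes were lower and 8.66% higher. In knockout Ifitm2 was higher by 0.89 and Ifitm3 by 0.83, 2 of 6, where 10.4% of 13569 genes were higher and 7.56% lower. Bst2 reached 1.29 and 1.31 FPKM in the respective E15.5 groups, from 3.32 and 1.18 FPKM. Microglia and macrophage markers were higher past the fold in 7 of 15 genes in knockout and lower in 1 of 17 in wild type over the same step. Mesenchymal and meningeal markers were lower in 8 of 10 genes in wild type (166 to 34.4 FPKM in sum) and in 6 of 9 in knockout (92.9 to 29.0 FPKM), and endothelial markers in 4 of 11 in wild type and none in knockout, where 1 was higher. Erythroid markers were lower in 3 of 5 genes in each genotype, and choroid plexus markers in 6 of 6 in knockout and 2 of 7 in wild type. Their part in the differences of the 9 genes was not tested. The E15.5 groups are shared with the later step, so the stage comparisons are not independent of each other.

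**Figure D5:**
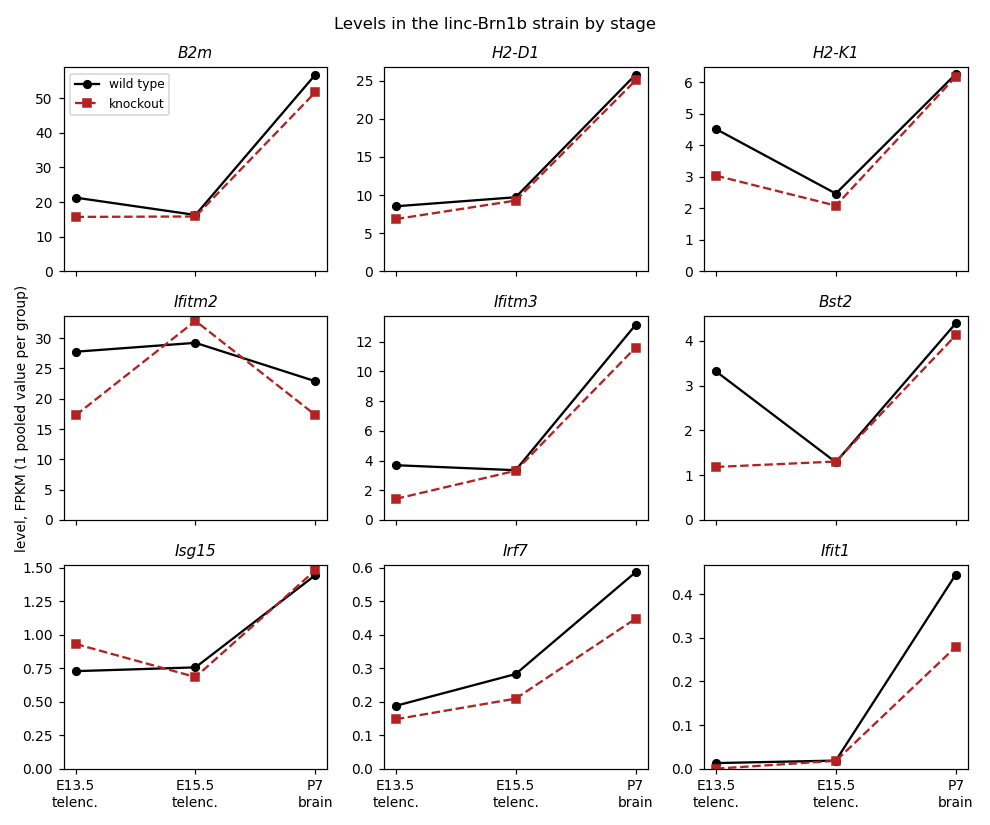
FPKM of each gene in wild type (black) and knockout (red, dashed) linc-Brn1b groups at E13.5, E15.5 and P7, each point a pooled value and each vertical axis starting at 0. All genes but Ifitm2 are highest at P7 in both genotypes, and the genotypes lie furthest apart at E13.5 for Bst2.

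Across the 6 linc-Brn1b groups B2m ran closest to H2-D1 (Pearson r = 0.97), Ifitm3 (0.95) and Isg15 (0.93), and least like Ifitm2 (-0.45). Over all candidates the most alike profiles were those of Anxa6, Shox2 and Sepp1 for B2m, and of Slc46a3, Hprt and Chi3l1 for H2-D1. They were Slc16a14, Arhgap31 and Islr for H2-K1 and Pdcd5, Ntan1 and Dnpep for Ifitm2. Ifitm3 ran most like Cycs, Sat1 and the macrophage gene Fcer1g, Isg15 like Ccdc157, Tcirg1 and Acsl3, and Bst2 like Sertad1, Smagp and Pstk. With 6 pooled points such values are common: 91 of 13513 candidates reached an r of 0.99 with B2m and 262 with H2-D1, against 1 with Bst2.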

How the data were processed

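Libraries were made from total RNA with the Illumina TruSeq kit and sequenced as paired ends. According to the submitters' processing notes, the authors aligned reads with TopHat2 to mm9 and quantified them with Cufflinks 2.0.2. Its Cuffdiff program wrote 1 FPKM per gene and group, pooled over replicates, in 3 tables, which are the deposited values used here. The tables also hold the authors' own fold changes, test statistics, p-values and q-values, which were not used. Library totals and values per library are not analysed here, so the depth behind a value is unknown and no interval, SD or test is given.

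From the FPKM values, differences of log2(FPKM + 1) were computed in Python 3.11.15 with numpy 2.4.6 and pandas 2.3.3, for 5 genotype and 4 stage comparisons, among genes with a mean of at least 1 FPKM. Genes past 1.5-fold were counted. Another 16 lists of pathway and cell type genes were summarised alike. From each pathway list up to 4 genes a comparison with the largest difference, and the most abundant, were named, and for likeness the 3 genes with the highest Pearson r. Marker genes other than the most abundant were named after their values were seen. The 9 genes and the lists were chosen with earlier results of these data known. Alternatives were pseudocounts of 0.1 and none, a mean of at least 0.1 FPKM, no filter, centring on the median of all genes and a fold of 2. The fold rule was run on simulated pairs with little noise and no variation between libraries. That run checks the code and cannot give the rule's error in these data. Promoter sequences came from RefSeq (GRCm38.p6), positions from GENCODE and the mm9 genome.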

Additional observations from a re-analysis of the deposited data

How the results depend on the processing

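The main limit is that 1 pooled value per group leaves the spread between libraries unknown. No paired analysis was possible because the tables carry no values per library, so no replicate could be left out either. Of 54 counts recomputed, 46 stayed within 1.5 times, and of 45 medians 30 moved by less than 0.1 on the log2 scale, a tolerance set because no spread exists. Counts of 0 that stayed at 0 are among those 46. The signs of differences past the fold are no check, since another pseudocount, filter or fold cannot turn a sign. Centring shifted the differences by less than the fold limit.

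For Peril brain the count of 3 became 6 with a pseudocount of 0.1 or none and 1 with a fold of 2, and the median became -0.69 and -0.72 with those pseudocounts. In Fendrr lung a mean of at least 0.1 FPKM or no filter raised the count from 0 to 1 (Isg15). At E13.5 these filters gave medians of -0.43 and -0.42, and a fold of 2 left a count of 0. From E13.5 to E15.5 the same filters gave medians of -0.042 and 0.0081 in wild type and 0.0765 and 0.0754 in knockout, and a fold of 2 left 0 in each. From E15.5 to P7 the wild type median was 1.40 and 1.41 with pseudocounts of 0.1 and none, 1.07 with either filter and 1.34 after centring, and the knockout median was 1.52 and 1.57 with those pseudocounts. The added genes below 1 FPKM move the medians under the filters by construction.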

Other observations

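MHC class II genes, which present outside antigens on macrophages and B cells, were low in brain and higher in lung. The 11 genes summed to 27.2 FPKM in wild type and 20.3 FPKM in Fendrr knockout lung, where all 6 genes counted had a difference below 0 and none passed 1.5-fold, with Cd74 at 9.62 and 6.59 FPKM. In the brain groups the sum lay between 1.58 FPKM in E13.5 knockout and 12.3 FPKM in P7 knockout. Lymphocyte markers summed to between 2.81 and 13.3 FPKM over the 10 groups.

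The class I gene H2-Bl was lower in the Peril libraries labelled knockout at 0.662 against 3.19 FPKM, and higher in P7 linc-Brn1b knockout brain at 3.52 against 0.710 FPKM. H2-T9, another class I gene, was lower in the P7 knockout at 0.602 against 1.61 FPKM. Both belong to the class I family, whose near copies make their levels uncertain.

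Interferon ligands summed to between 0 and 0.0914 FPKM over the 10 groups, the latter in P7 wild type brain, and none reached 0.1 FPKM in any group.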
